A study of Mus musculus with 2 samples.

Results

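The regions described here were 2978 GPS2 windows of 3T3-L1 cells that lay in the middle of the authors' day 0 window list and were listed again at day 6. They were chosen by 2 readouts of the same data. A window had to stand after row 1800 and up to row 5300 of the 7652 windows in the day 0 list, counted in deposited order. It also had to overlap a window of the day 6 list by at least 1 bp. The row range held 3500 windows, and 522 of them had no overlap with any of the 19794 windows listed at day 6. The members made up 38.9% of the day 0 list and 53.9% of the 5529 day 0 windows that overlapped the day 6 list at all. The remaining 2551 of these, from the outer rows, are called the other kept windows below.

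3T3-L1 is a mouse preadipocyte line that becomes fat-storing adipocytes under hormonal induction. Binding of GPS2 was mapped by ChIP-seq, in which DNA fragments pulled down with an antibody are sequenced, in 1 library of cells at day 0 and 1 library of cells at day 6 of induced adipogenesis. Both libraries carried the same antibody label, anti-GPS2, and the labels name rabbit antibodies against peptides from both ends of the protein without saying which was used. The labels name no genetic change in the cells. No replicate and no control immunoprecipitation was analysed here, so reads that pile up for reasons other than GPS2 cannot be told apart from binding.

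GPS2 is a small subunit of the corepressor complexes built around NCoR and SMRT, which carry the histone deacetylase HDAC3 and keep nuclear receptor target genes low. In the nucleus of adipocytes it is also known as a promoter cofactor, and the study's title ties it to the histone demethylase KDM4A and to the recruitment of PPARG, the master regulator of fat cell genes, to promoters. A promoter is the stretch around a gene start where the transcription machinery assembles. GPS2 reaches DNA through other proteins.

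The libraries held 4258133 reads at day 0 and 3543507 at day 6. All positions are in the build mm8 and are counted from 1. The window lists held positions only. No gene annotation of mm8 was used, so windows carry coordinates in place of gene names. Each list belongs to the library whose reads are counted here. With 1 library per day no test between days was possible. Intervals are 95% intervals for counting error only, and the spread between cultures or immunoprecipitations is unknown.

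What the row range stands for was checked first, from the order and positions in the lists alone. The row numbers behaved as a signed distance in base pairs from a landmark on the genome. When a day 0 window and its day 6 partner had centres some distance apart, their row numbers in the 2 lists gave back the same distance. A smooth curve from row to position was fitted to 3728 pairs of partners, 2933 of them members, with centres at most 1000 bp apart. It returned the measured distance between member partners with a median error of 2.27 bp, and 2569 of the 2933 pairs (87.6%) within 20 bp. The curve was then fitted on the odd-numbered autosomes alone and read on the chromosomes left out. There the median error was 2.45 bp over 1301 member pairs. Of the 768 pairs at least 100 bp apart on those chromosomes, 645 (84.0%) came out within 20 bp, with a median error of 4.16 bp.

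**Figure D1:**
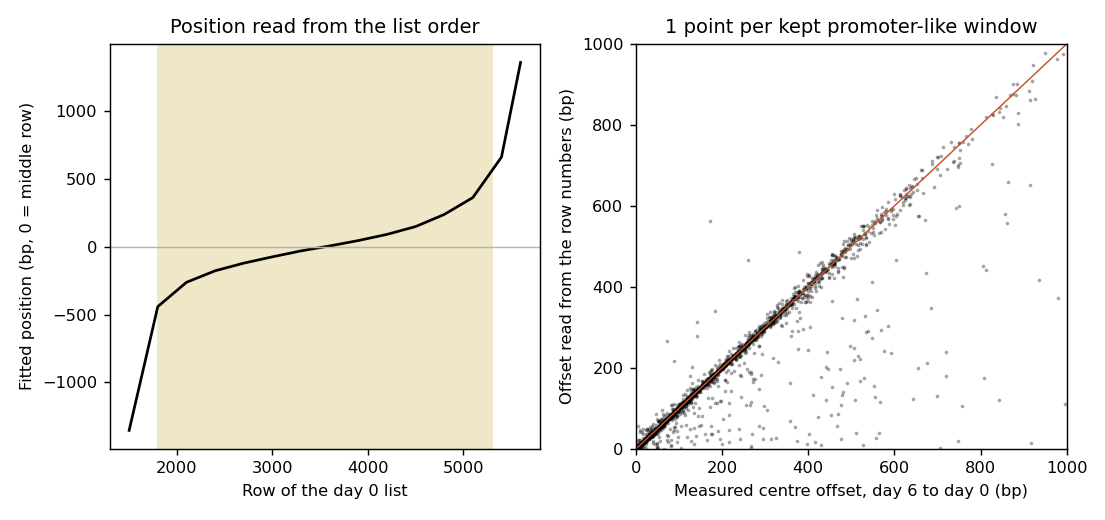
The left panel plots the fitted position in bp against the row of the day 0 list, with the member rows shaded. The right panel plots, for each member, the distance read from the row numbers against the measured distance between the day 0 and day 6 window centres, both in bp, with a line of equality: 2569 of the 2933 pairs lie within 20 bp of the line.

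On this scale, with 0 set at the middle row of the range, the first row lay at -441 bp and row 5300 at 561 bp, so the 3500 rows spanned 1001 bp. Within the range the windows crowded around the middle: 1195 members (40.1%) lay within 100 bp of it and 1992 (66.9%) within 200 bp. The quartiles of position were -130 bp and 132 bp around a median of -3.64 bp. The landmark itself was not identified, because no annotation of the build was used. Whether it is a gene start was not tested, and "promoter-like" is a name for these rows and not a finding. The side of low row numbers and the side of high row numbers are named as such, since the lists do not say which of them is upstream.

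The sign of the distance also gave each landmark a strand. It could be read for 2152 members (72.3%) whose partners' centres were at least 30 bp apart and matched the curve within 20 bp. The 14 members in a dense run on chromosome 6 and a dense stretch of chromosome 10, described below, were left out. Row numbers grew along the plus strand at 1080 of them and along the minus strand at 1072, so the strands were almost evenly used.

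Along the day 0 list, overlap with the day 6 list was most frequent in these rows. The share was 85.1% of the 3500 windows in the range against 61.4% of the 4152 windows outside it. In bins of 250 rows lying wholly inside the range it stayed between 80.0% and 89.6%, against 61.6% in rows 1251 to 1500 and 49.2% in rows 6001 to 6250. The change was gradual at the edges: rows 1501 to 1750, outside the range, held 79.2%. Just outside, 3 of the 5 windows before the range and 3 of the 5 after row 5300 overlapped the day 6 list, with 12 to 37 reads at day 0 and 8 to 45 at day 6. The 5 members just inside each end had 14 to 37 reads at day 0 and 15 to 39 at day 6. These are kept windows only, so the sets inside and outside are not alike. Median reads at day 0 and day 6 were 16 and 13 in rows 1251 to 1500 and 20 and 19 in rows 1501 to 1750. At the other end they were 22 and 24 in rows 5251 to 5500 and 17.5 and 17 in rows 5501 to 5750.

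**Figure D2:**
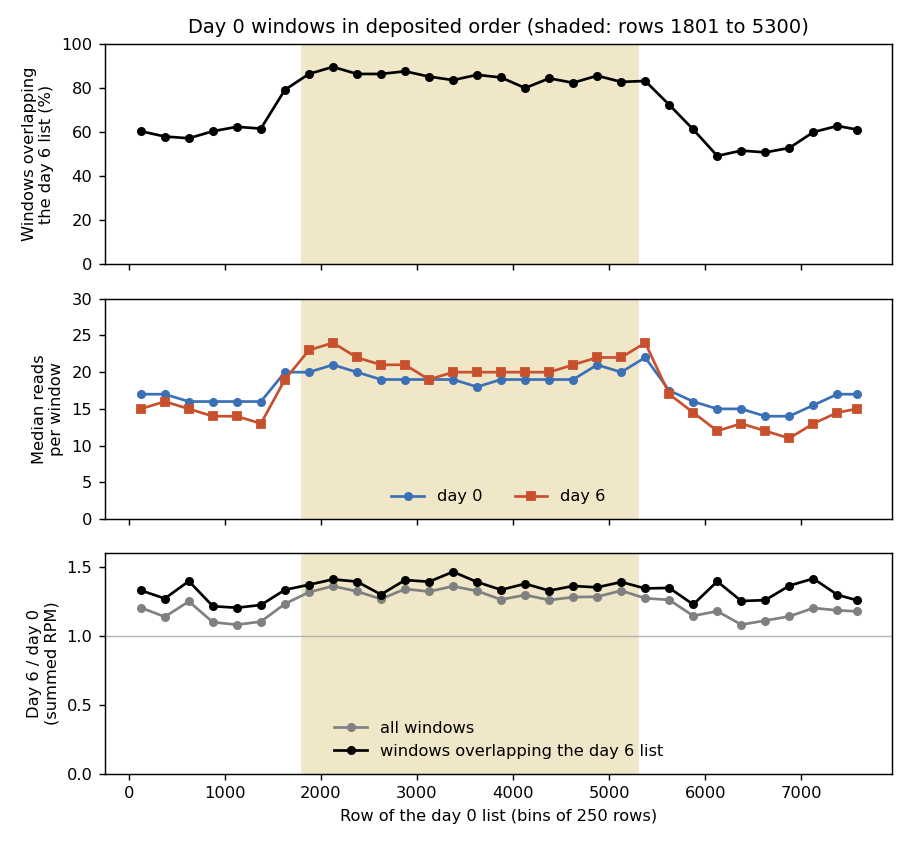
Day 0 windows in deposited order, in bins of 250 rows, with the member rows shaded: the share that overlapped the day 6 list in percent (top), the median reads per window at each day (middle) and the ratio of summed reads scaled to library size, day 6 to day 0 (bottom). The share overlapping rises from near 60% in the low outer rows to between 80.0% and 89.6% in the bins wholly inside the shaded rows.

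Most members held moderate numbers of reads within a narrow range, with a few far denser ones. At day 0 they held from 7 to 740 reads, with a median of 20 and quartiles of 17 and 25. At day 6 they held from 4 to 791 reads, with a median of 23 and quartiles of 18 and 30. As RPM, the reads per 1000000 reads of the library, the medians were 4.70 and 6.49. No member was without reads in either library. Counted once where windows overlapped, the members held 69914 reads at day 0, 1.64% of the library, and 79869 at day 6, 2.25%.

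Flanks were the 5 kb to each side of a window, outside all windows of both lists, and per base pair the members stood 4.64 times above them at day 0 and 6.12 times at day 6. Among single members the median of this fold over the flank was 4.65 (quartiles 3.62 and 5.88) at day 0 and 6.20 (quartiles 4.53 and 8.51) at day 6. A fold of at least 2 was reached by 98.3% of members at day 0 and by 98.6% at day 6. Members had to be listed at both days from these same libraries, so high shares were given in part by their choice. For the other kept windows, which met the same overlap rule, these shares were 90.7% and 90.5%, and their median folds 4.21 and 5.20. In the 522 windows of the same rows without overlap at day 6, the day 0 share was 96.4%. The day 0 share thus does not mark the members out among their rows. The other kept windows were also more uneven: 1 in 10 held at least 45 reads at day 0, against 31 in the members, at the same median of 20. The flanks of members were denser than the genome mean, 1.49 times at day 0 and 1.53 times at day 6, but less so than those of the other kept windows, at 1.93 and 2.02 times. Without the densest 1% of each group the values were 1.37 and 1.40 against 1.76 and 1.84. The genome mean was taken over whole chromosome lengths, with no allowance for sequence where reads cannot be placed.

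Around the centres of the day 0 list, read starts stood in a box at day 0 and in a wider mound at day 6. At day 0 the plus-strand starts of members stepped from 0.0804 RPM per window in the 50 bp bin at -250 bp to 0.274 in the bin at -200 bp, and stayed between 0.267 and 0.279 up to the centre. The minus-strand starts filled the 200 bp after the centre in the same way. The same step stood in the other kept windows, from 0.0846 to 0.297, and in the 522 windows without overlap at day 6, from 0.0522 to 0.232, so the day 0 width of 200 bp does not mark the members out. At day 6 the starts of members had no such step, and the mound was 400 bp wide at 0.5 of its height, around the same centres. The day 6 centres often lay elsewhere, so the wider mound is no measure of the width of the day 6 signal. In the 701 members with both centres within 50 bp, 57.1% of day 0 reads and 59.7% of day 6 reads lay within 200 bp of the day 0 centre. The tops of the members' profile were 16.1 (plus) and 17.2 (minus) times the level beyond 1 kb at day 0, and 15.5 and 16.0 times at day 6.

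The other kept windows had a narrow spike on top of this shape. Their plus-strand starts reached 0.920 RPM per window in the bin before the centre at day 0, 32.7 times the level beyond 1 kb, and 1.07 at day 6. The members had no spike in that bin, with 0.271 and 0.243. In members with at least 20 reads, the median share of reads within 200 bp of the centre was 45.5% (quartiles 36.7 and 55.0, 1626 windows) at day 0 and 44.4% (quartiles 32.0 and 57.1, 1973 windows) at day 6. In the other kept windows the medians were 50% and 47.1%, but the upper quartiles were 73.6% and 78.3%. The members' upper quartiles were the lower ones at both days. No test was made, since windows of 1 library are not replicates.

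**Figure D3:**
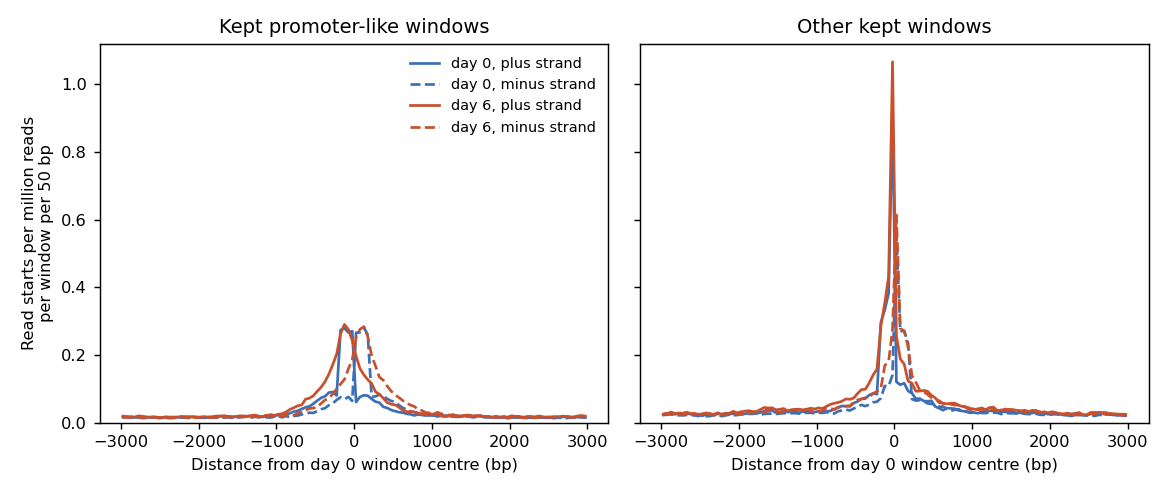
Read starts per window, scaled to RPM, in 50 bp bins against the distance from the day 0 window centre in bp, for members (left) and the other kept windows (right), by strand (solid plus, dashed minus) and day (blue day 0, red day 6). Both groups show the 200 bp box at day 0, and the other kept windows a spike of one bin on top of it that the members do not show.

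Aligned on the position of the middle row and oriented by row number, the GPS2 signal of the 2152 oriented members was highest near the middle at both days. The bin with the most shifted reads ran from 0 to 50 bp, at 11.7 times the mean level beyond 2 kb at day 0 and 15.4 times at day 6. It held 3050 reads at day 0, against 2738 in the bin before it. At day 6 the 2 bins held 3580 and 3559, so the day 6 top is not resolved between them. Since the members were chosen by their rows, a mound around the middle was given by the rule, and so in part was its lean, as the rows reach further on the high-row side (561 bp) than on the low-row side (-441 bp). The values by side are therefore a description around the middle row and say nothing of symmetry about the landmark. At day 0 the first 500 bp on the high-row side held 1.08 times (1.06 to 1.10) as many reads as the first 500 bp on the low-row side, and at day 6 0.963 times (0.945 to 0.981). Between 500 and 1000 bp the high-row side was denser at both days, 1.23 times (1.18 to 1.28) and 1.27 times (1.22 to 1.33). From 1000 to 3000 bp it was denser too, by a factor of 1.12 (1.09 to 1.15) at day 0 and 1.12 (1.09 to 1.15) at day 6.

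Reads within a window leaned towards the position of the middle row. In the first 500 rows, at -441 to -206 bp, 60.2% (59.0 to 61.4) of the day 0 reads of the oriented members lay on the high-row side of the window centre, the side facing the middle. This share was lower in each following bin, through 57.2%, 53.6%, 51.6%, 48.7% and 44.2%, to 40.5% (39.4 to 41.6) in the last 500 rows, at 238 to 561 bp. The day 6 reads leaned further, from 68.1% (67.0 to 69.1) in the first bin to 31.4% (30.4 to 32.3) in the last. They crossed 50% in rows 3301 to 3800, with 49.4% (48.3 to 50.6). The windows are centred on the day 0 list, and the orientation uses day 6 centres listed from these same day 6 reads. A larger day 6 lean was thus given in part by the method, and nothing is read from it.

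The day 6 window centres were displaced the same way. In the first 500 rows the day 6 centre lay on the high-row side of the day 0 centre at 238 of 287 oriented members (82.9%), with a median displacement of 155 bp. In the last 500 rows it lay there at 49 of 337 (14.5%), with a median of -263 bp. Windows far from the middle at day 0 can be listed nearer to it at day 6 by their selection alone, so this displacement is a description. The lean of the day 0 reads rests on 1 library and does not use the day 6 position of the window, but the orientation does.

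**Figure D4:**
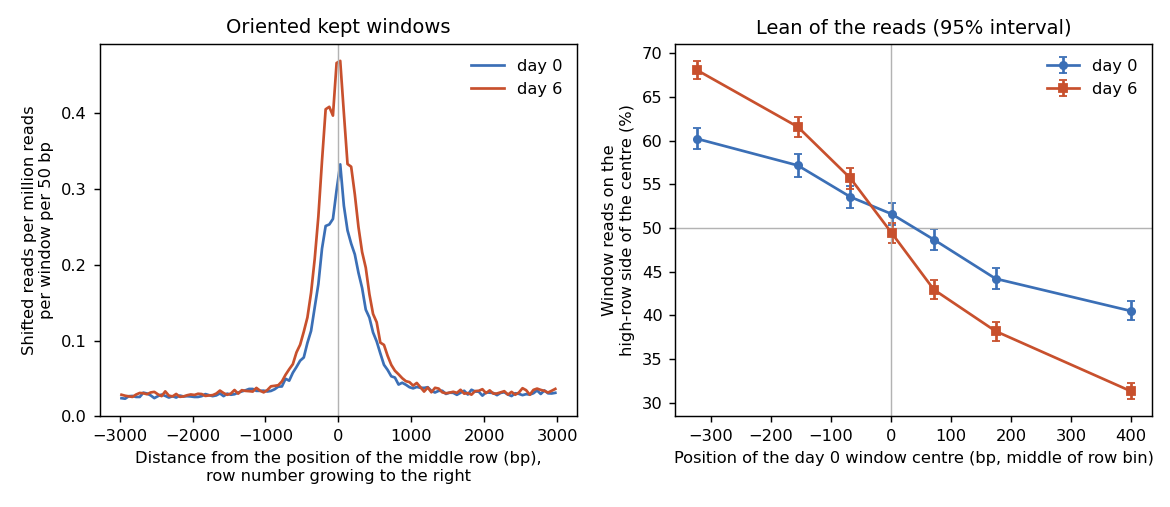
The left panel plots shifted reads per oriented member, scaled to RPM, in 50 bp bins against the distance in bp from the position of the middle row, row number growing to the right. The right panel plots the percent of window reads on the high-row side of the centre, with 95% intervals, against the position in bp of the day 0 window centre for 7 bins of 500 rows: both days fall from above 60% to near 41% (day 0) and 31% (day 6).

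Partner windows lay close together but seldom on the same spot. The day 6 centre was a median of 133 bp from the day 0 centre (quartiles 55 and 284 bp). It was within 50 bp at 701 members (23.5%) and more than 500 bp away at 269 (9.03%). Among the other kept windows the median was 100 bp, with 38.1% within 50 bp and 17.6% beyond 500 bp. The overlap with the partner was under 1000 bp at 45 members, the smallest being 43 bp. The members had 2973 different day 6 partners, and 117 members overlapped more than 1 day 6 window.

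Relative to library size the members held more reads at day 6 than at day 0. The ratio of summed RPM, day 6 to day 0, was 1.37 (1.36 to 1.39), and the median over members was 1.35 (quartiles 1.09 and 1.68). The ratio was above 1 at 2466 of 2978 members (82.8%). The flanks of the same windows gave 1.02 (1.01 to 1.03). The size of the difference depended on the scaling: reads in bins outside all windows gave 1.46, and setting the median of all 5529 kept windows to 1, which lowers every log2 ratio by 0.39, gave 1.05. Requiring a window in both lists removes windows whose day 6 signal was low, so no support for a gain is drawn from these ratios.

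Against the other kept windows, which passed the same overlap rule, the members had the slightly larger ratio: 1.37 against 1.30 (1.29 to 1.31) over sums, and 1.35 against 1.27 as medians. The order does not depend on the scaling, which moves both alike. The overlap rule kept 85.1% of the member rows but 61.4% of the others, so it did not cut both groups alike. In bins of 250 rows, the kept windows had ratios of 1.30 to 1.47 wholly inside the range and 1.21 to 1.42 wholly outside it. The 522 windows of the same rows without overlap at day 6 had 0.784 (0.758 to 0.811), as their choice implies. They still stood 2.82 times above their flanks at day 6, against 3.88 times at day 0, and 76.1% of them had a fold of at least 2 at day 6.

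By a rule of size, a doubling or more in either direction with 10 reads or more in the larger library, 328 members were higher at day 6 (11.0%) and 10 were lower (0.336%). Over all windows of the day 0 list the shares were 7.5% higher and 6.14% lower. The overlap rule used the same contrast, so nothing is read from the distance to these shares. In the other kept windows 241 were higher (9.45%) and 41 lower (1.61%). After scaling to the median of the kept windows the members had 47 higher and 48 lower, so that 49.5% of their calls were higher in place of 97.0%. At that scaling 1.18% of all windows of the day 0 list were higher and 12.4% lower. An interval of the ratio wholly above 1 was seen at 506 members (17.0%) and wholly below 1 at 4 (0.134%), where all windows of the day 0 list had 11.8% and 2.46% and the other kept windows 15.3% and 1.22%.

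The ratios of single members ran from 0.901 at the 10th percentile to 2.03 at the 90th. Around 1 common ratio, the counts varied 1.15 times as much as counting error alone gives, against 1.56 times in the other kept windows. Without the densest 1% of each the values were 1.11 and 1.52. Requiring a window in both lists can narrow this spread, which was 1.70 over all windows of the day 0 list. No likeness of the 2 days is therefore read from it. This measure moved with the number of reads, from 0.765 in the 765 members with the fewest reads over both days to 1.64 in the 736 with the most, and the other kept windows hold more dense windows. Across members the heights of the 2 days, as log2 of RPM plus 1, correlated at 0.732 (Pearson) and 0.574 (Spearman), both below the 0.877 and 0.772 of the other kept windows. These are descriptions over windows that share both libraries, and the members span a narrower range of heights. Without the dense run on chromosome 6 described below, the Pearson value was 0.677. Of the 100 members with the most reads at each day, 62 were shared.

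The ratio was much the same all along the row range. In 7 bins of 500 rows the summed ratio lay between 1.33 (1.30 to 1.36), in the 500 rows after row 2300, and 1.415 (1.375 to 1.46), in rows 3301 to 3800. Its low value after row 2300 was set by the 10 dense windows described next, and was 1.41 (1.37 to 1.45) without them. Median reads per bin were 19 to 22 at day 0 and 22 to 25 at day 6. The share of reads within 200 bp of the centre was lowest in the 2 outermost bins, 46.4% and 43.5% at day 0, and highest at 55.2% in the 500 rows after row 2300. That bin too had 50.3% without the dense windows.

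**Figure D5:**
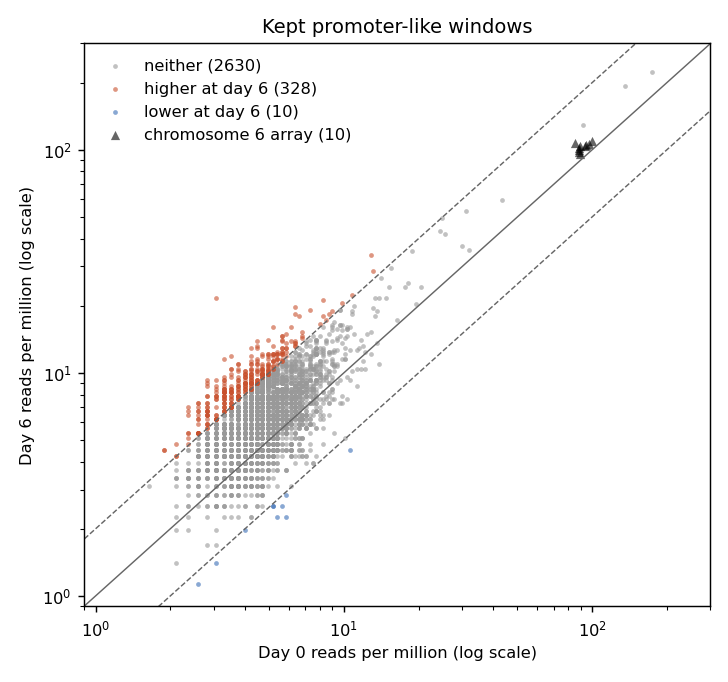
Day 6 against day 0 RPM for each member, both on log scales, with the line of equality (solid) and the ratios 2 and 0.5 (dashed). Most of the cloud lies above equality, with 328 members called higher and 10 called lower, and the 10 windows of the chromosome 6 run described next (triangles) sit together in the upper right.

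A run of 10 members on chromosome 6 stood apart from all others. They lay between 47583708 and 47683516 and were spaced with great regularity: 7 of the steps between neighbouring starts measured 4311 to 4340 bp, 1 measured 8687 bp, and a gap of 58838 bp lay between them. Each held 365 to 425 reads at day 0 and 341 to 389 at day 6, while no member outside this run and a dense stretch of chromosome 10 had more than 184 and 212. Their rows, 2538 to 2673, put all of them between -151 and -126 bp, within 25.4 bp of each other. Their day 6 centres were 1 to 19 bp from the day 0 centres.

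Windows over near-identical copies of a sequence can share reads. No source used here says how reads that match several places were placed, and whether these windows share sequence was not tested, so their values are uncertain and are not counted as 10 separate measurements. Together they held 5.58% of the summed member reads at day 0 and 4.58% at day 6. Their ratio was 1.13 (1.08 to 1.18), with single values from 1.08 to 1.25. Without them the ratio over members was 1.39 (1.37 to 1.40), with 328 higher and 10 lower windows as before. The window from 47613992 to 47615991, picked after its values were seen, stood highest over its flank, 19.2 times at day 0 and 27.7 times at day 6.

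The windows with the most reads came from this run and from chromosome 10. The densest member, on chromosome 10 from 117112488 to 117114487, had 740 day 0 and 791 day 6 reads and a ratio of 1.28 (1.16 to 1.42). The next, from 117148386 to 117150385, had 579 and 685, which gives 1.42 (1.27 to 1.59). Both stood only 2.11 to 3.51 times above their flanks, in a stretch that is dense in reads between windows as well. The stretch held 4 members between 116627573 and 117150385, and leaving them out gave a ratio over members of 1.37.

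Other members stood out by their fold over the flank. On chromosome 1 the window from 46797154 to 46799153 had 106 reads and then 176. Its ratio was 1.995 (1.56 to 2.56), and it stood 32.8 and then 62.8 times above its flank. The day 0 flank was at the floor, so 32.8 is a multiple of the genome mean. On chromosome 15 the window from 79372958 to 79374957 had 104 and 154 reads. Its ratio was 1.78 (1.38 to 2.30), at 17.3 and 38.5 times its flank. On chromosome 2 (49272619 to 49274618) the reads were 57 and 77, and on chromosome 6 (51398586 to 51400585) 127 and 131, at 28.7 and 28.5 times the flank at day 6. The chromosome 2 flank was at the floor, so 28.7 is a multiple of the genome mean. All 4 had nearly the same centre at both days, with offsets of 1 to 86 bp.

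Of the 2246 members with at least 20 reads in 1 library, the largest ratio belonged to a window on chromosome X. It ran from 102388679 to 102390678 and had 13 day 0 reads and 77 day 6 reads. This gives 7.12 (3.93 to 14.0), with 4.03 and 28.7 times the genome mean, which stood in for its flank as the floor at both days. The next members were lower. On chromosome 6 (29558780 to 29560779), 14 and 41 reads gave 3.52 (1.88 to 6.99). On chromosome 17 (24999746 to 25001745), 15 and 42 reads gave 3.37 (1.83 to 6.53). Windows on chromosome 6 (85880621 to 85882620) and chromosome 19 (43742215 to 43744214) had 12 reads each at day 0 and 33 and 32 at day 6. The intervals of the last 4 overlap widely, so their order is not resolved. All 5 were picked for their ratio out of many windows, so the ratios are a description.

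The smallest ratios were less extreme. On chromosome 19, 25 and 8 reads in the window from 43577243 to 43579242 gave 0.385 (0.150 to 0.880). On chromosome 7, 45 and 16 reads in the window from 120707825 to 120709824 gave 0.427 (0.225 to 0.771), and this window still stood 4.70 times above its flank at day 6. A window on chromosome 19 (5487091 to 5489090) had 23 and 8 reads, but shared only 200 bp with its day 6 partner, whose centre lay 1800 bp away. Those on chromosome 3 (88382259 to 88384258, 24 and 9 reads) and chromosome 15 (76705431 to 76707430, 25 and 10 reads) had intervals that reached above 1.

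The members were spread over all autosomes and few on the X chromosome. On the autosomes they made up between 44.5% (chromosome 18) and 64.6% (chromosome 19) of the kept windows. On the X they were 10 of 61, or 16.4%. There were 1.03 members per 100 protein-coding genes on the X, 5.57 on chromosome 7 as the lowest autosome and 27.6 on chromosome 8 as the highest. The gene counts come from the assembly GRCm38.p6 and were used without coordinates. The other kept windows gave 5.28 per 100 genes on the X, above the 4.43 of chromosome 7. Across the 20 chromosomes without Y, members per Mb and protein-coding genes per Mb correlated at 0.517 (Pearson) and 0.629 (Spearman), against 0.235 and 0.393 for the other kept windows. The chromosomes share both libraries, and the counts were not corrected for read depth or copy number of single chromosomes. These values are descriptions.

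The ratio of day 6 to day 0 over the members of a chromosome lay between 1.24 (1.14 to 1.35) on chromosome 12 and 1.46 (1.40 to 1.52) on chromosome 15 among the autosomes. Chromosome 6 had 1.25 (1.22 to 1.29) and carries the run of 10 windows. The 10 members of the X gave 1.65 (1.35 to 2.03), of which the single window named above contributed 77 of the 231 day 6 reads. The other 9 gave 1.19 (0.949 to 1.502). A cluster of 63 day 0 windows on chromosome 13 held 15 members between 21722759 and 22051587, with a ratio of 1.35 (1.16 to 1.57), 2 higher and 0 lower, close to the members elsewhere.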

How the data were processed

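ChIP-seq of GPS2 was analysed in 1 library of day 0 and 1 of day 6. Per the submitters' processing notes, Bowtie and HOMER were used, with the build mm8. No source used here gives versions, settings, peak thresholds or controls. The authors deposited aligned reads of 36 bases, with a constant score that carries no measurement, and lists of 2000 bp windows holding positions and no other value. Read starts were moved 95 bp (day 0) or 85 bp (day 6) towards the fragment centre and counted in each window, and sums count overlapping windows once. The flank density had the genome mean as its floor and needed 2 kb of free flank. Ratios carry exact conditional binomial intervals and shares exact Clopper-Pearson ones. PCR copies cannot be told from independent molecules. The curve from row to position was piecewise linear with 17 knots at day 0 and 22 at day 6, fitted by least squares with a robust loss (scipy 1.17.1), and depends slightly on its starting values. The methods were checked on simulated data.

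The members, the lists and the tests were chosen with earlier results of these data known. Windows were named by rule: the 5 members with the most reads at each day, the 5 highest folds over the flank at day 6 and, with at least 20 reads in 1 library, the 5 largest and 5 smallest ratios, besides the 5 windows on each side of both row limits. The run on chromosome 6, the orientation and the fit of the order were added after the values were seen. Gene names were not used, because the annotation at hand was of another build.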

Additional observations from a re-analysis of the deposited data

How the results depend on the processing

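Reads outside the windows as the scale gave 443 higher and 6 lower members (759 and 404 of all 7652 day 0 windows). The ratio over members was then 1.46. With the median of the kept windows set to 1 it was 1.05, with 47 higher and 48 lower members (90 and 947 of all). A ratio of 1.5 as the limit gave 1140 higher and 56 lower (1948 and 972 of all). Counting the central 400 bp gave a ratio of 1.29, with 404 higher and 77 lower members (598 and 539 of all). Subtracting the flank density gave a ratio of 1.46. A flank of 10 kb gave densities of 4.79 and 6.23 times the flank at day 0 and day 6, and no floor gave 4.775 and 6.37. The share of reads within 200 bp of the centre was 44.3% at day 6 with no shift, and 49.35% and 46.35% at day 0 and day 6 without the densest 1%. Without the run on chromosome 6, an alternative chosen after seeing the data, the ratio was 1.39, the densities 4.51 and 6.02, and the shares 49.1% and 46.4%. The cause of these changes was not tested. An overlap of at least 1000 bp left 2933 members and leaving out the first and last 500 rows left 2117, with ratios of 1.38 and 1.37. No paired analysis was possible because each day had 1 library. At a median of 20 reads, changes below about the limit of the size rule could not be read from single windows.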

Other observations

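Members close to another day 0 window had the lowest summed ratio, but they include most of the dense run on chromosome 6. The 233 members with the next day 0 window within 5 kb had a ratio of day 6 to day 0 of 1.28 (1.25 to 1.32) over sums and 1.335 as a median. They held 9141 reads at day 0 and 9745 at day 6. The whole run held 3901 and 3657 reads at a ratio of 1.13. The ratio of these 233 members without the run was not computed, so nothing is read from their low value. The 1345 members with the next window 5 to 50 kb away had 1.38 (1.36 to 1.41), and the 1400 members with none within 50 kb had 1.39 (1.37 to 1.41). Isolated members stood further above their flanks at day 6, at 6.96 times against 5.45 times for those with a neighbour at 5 to 50 kb, and their flanks were thinner, at 1.25 against 1.67 times the genome mean at day 0. Members with a neighbour within 5 kb had flanks at 2.10 times the genome mean.

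Further windows of the day 6 list were more frequent on the high-row side of the oriented members. Between 1 and 10 kb from the position of the middle row there were 503 on that side and 415 on the low-row side, a ratio of 1.21 (1.06 to 1.38). Of these, 323 and 226 had no day 0 counterpart. The middle row is not the landmark, the rows reach further on the high-row side, and the orientation itself uses day 6 windows. The counts by side are therefore a description and say nothing of symmetry about the landmark. The interval treats the windows as independent.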
